A study of Mus musculus with 3 samples.

Results

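The mouse Hox genes were described in adult bladder and in bladder assembloids, all features whose symbol is Hoxa, Hoxb, Hoxc or Hoxd followed by a number. There were 40 such features of 31053 mouse features, for 39 symbols, since Hoxd4 is listed under 2 gene IDs. They comprise 11 Hoxa, 10 Hoxb, 9 Hoxc and 10 Hoxd features. Adult bladder came from wild-type C57BL/6 mice aged 8 to 9 weeks, as 1 library from a pool of 8 bladders. The assembloids, constructs in which bladder epithelium and stromal cells are put together in culture, gave 1 library after 1 day and 1 after 7 days, each from a pool of 3. The labels give no strain, age, genotype or cell source for the cells in the assembloids. With 1 library per group no test between groups was possible, and every interval below is a 95% interval for counting error alone.

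Hox genes encode homeodomain transcription factors that lie in 4 genomic clusters, and genes with the same number in different clusters form a paralogue group. Along the embryonic axis, low-numbered groups are switched on first and reach furthest towards the head, and high-numbered groups are used towards the tail. Hoxa13 and Hoxd13 act in the hindgut, cloaca and urogenital sinus, the region that forms the bladder, and cultured fibroblasts are known to keep much of the Hox pattern of the place they were taken from. In the GRCm38 annotation used here Hoxa genes lie on chromosome 6, Hoxb on chromosome 11, Hoxc on chromosome 15 and Hoxd on chromosome 2.

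Clusters of assembloid stroma were placed in 2 sets after their Hox values were seen. The sets of clusters differed in Hoxa13 and in Hoxb and Hoxc genes of groups 2 to 10. Levels of Hoxa5 and Hoxa7 also differed within 1 of the sets. The 250 bases before the annotated start are shown for 3 members that differed between the sets of clusters, Hoxa13 on one side and Hoxb4 and Hoxb8 on the other. The sequences are from RefSeq on GRCm38.p6, written 5′ to 3′ on the strand of the gene. Hoxa13 is at chr6:52260881-52261130 on the minus strand, Hoxb4 at chr11:96318017-96318266 and Hoxb8 at chr11:96281655-96281904, both on the plus strand. Capitals mark matches on either strand to 3 motifs. They are the TATA box, spelled TATAAA here, the CCAAT box, named by its letters, and the GC box, spelled GGGCGG. Adjoining matches run together.
Hoxa13: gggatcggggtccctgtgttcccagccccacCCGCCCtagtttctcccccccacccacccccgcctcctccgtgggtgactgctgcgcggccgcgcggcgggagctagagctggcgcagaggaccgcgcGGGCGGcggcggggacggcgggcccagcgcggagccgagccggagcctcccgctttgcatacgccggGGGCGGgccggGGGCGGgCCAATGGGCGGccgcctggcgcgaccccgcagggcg
Hoxb4: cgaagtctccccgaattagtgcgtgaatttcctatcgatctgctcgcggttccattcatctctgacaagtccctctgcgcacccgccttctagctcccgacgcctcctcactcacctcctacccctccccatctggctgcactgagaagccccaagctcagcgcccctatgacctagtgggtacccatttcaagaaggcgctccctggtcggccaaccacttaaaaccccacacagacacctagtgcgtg
Hoxb8: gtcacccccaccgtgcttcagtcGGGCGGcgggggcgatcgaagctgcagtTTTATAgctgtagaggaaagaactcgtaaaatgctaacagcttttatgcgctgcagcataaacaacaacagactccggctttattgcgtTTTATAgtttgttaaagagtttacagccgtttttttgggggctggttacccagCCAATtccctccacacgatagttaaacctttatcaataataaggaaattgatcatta
The Hoxa13 stretch was 80% G or C and held 5 GC box matches, 1 CCAAT match and 0 TATA matches. The Hoxb8 stretch was 44.4% G or C, with 2 TATA, 1 CCAAT and 1 GC box match, and the Hoxb4 stretch was 58% G or C with none of the 3 motifs. Of 32851 promoters of this length in the table, 12.4% held a TATA box match, 33.8% a CCAAT box match and 32.7% a GC box match. Promoters of 22 Hox symbols were matched in this table, 24 stretches in all, with a median of 58.6% G or C against 52.4% for all promoters.

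The deposited matrices held 93560608 to 135955678 unique molecular identifiers (UMIs, counts of captured RNA molecules) per library. After filtering, 6775 bladder, 8258 1-day and 8172 7-day mouse cells remained, with medians of 7543, 14937.5 and 9399 UMIs. Pairs of libraries shared 21 to 114 cell barcodes. The 7-day library divided into 4355 cells whose nearest cells were nearly all of the 1-day library (assembloid-side), 3588 whose nearest cells were nearly all of the bladder library (bladder-side) and 229 between. Depth differed between these sides, at a median of 3345 UMIs for bladder-side and 19893 for assembloid-side cells, so 7-day results are given for the assembloid-side cells too. Cells were clustered without the Hox genes and named from marker genes, as fibroblast-like for example, and levels are given as CPM, the UMIs of a gene scaled to the same total of mouse UMIs in every class or cluster. The chemistry reads the 3′ end of each RNA, so CPM is not divided by gene length and an order between genes is a description.

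Bladder fibroblast-like cells carried mainly Hoxa genes of groups 10 to 13. Their Hox genes summed to 211 CPM over 1455 cells, of which 149 CPM came from Hoxa and 4.45 CPM from Hoxb, and 82.1% (80.3 to 83.8) of Hox UMIs lay in groups 9 to 13. Hoxa10, which patterns the uterus and vertebrae among other organs, was at 48.3 CPM (43.7 to 53.2). Hoxa13 was at 37.0 CPM (33.0 to 41.3), and Hoxa11, known from the forearm, uterus and kidney, at 33.0 CPM (29.3 to 37.1). Hoxa7 at 13.8 CPM, Hoxd13 at 13.6 CPM and Hoxd11 at 8.55 CPM completed the 6 highest. A gene was counted as found in a class with at least 5 CPM and 10 UMIs, and 11 of 40 members were found here, against 31.4% of all mouse features. The share of members found was no higher than that of genes in general.

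Smooth muscle-like and pericyte-like cells, the contractile cells of the bladder wall and of its vessels, were led by Hoxa genes too. Smooth muscle-like cells summed to 235 CPM with Hoxa10 at 42.0, Hoxa7 and Hoxa13 both at 30.8, Hoxd8 at 21.1, Hoxa5 at 15.9 and Hoxc11 at 14.7 CPM. Pericyte-like cells summed to 173 CPM, led by Hoxa7 at 30.5, Hoxa13 at 28.8, Hoxa10 at 21.9 and Hoxa11 at 16.7 CPM, with Hoxa5 at 14.4 and Hoxd8 at 11.5 CPM. In each of these classes 10 members were found (background 30% and 29.7%) and no Hoxb gene was among them. Hoxd13 was at 2.94 CPM in smooth muscle-like cells, where all 10 of its UMIs came from 71 cells of cluster 26, and at 0 UMIs in pericyte-like cells, where 3 counts would be 1.73 CPM. Mesothelial-like cells, the outer lining (50 cells), reached 503 CPM with Hoxa7 at 59.4, Hoxc6 at 56.3, Hoxa10 at 53.2, Hoxd11 at 36.0, Hoxc10 at 32.8 and Hoxa9 at 29.7 CPM, and 13 members found (background 23%).

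Endothelial-like cells, which line blood and lymph vessels, had the highest Hox sum of the bladder classes, 723 CPM, and little or no group 13. Hoxb4, known from blood-forming cells, stood at 129 CPM (121 to 138), followed by Hoxa7 at 81.9, Hoxb7 at 62.9, Hoxb9 at 61.1, Hoxa5 at 58.5 and Hoxd9 at 42.8 CPM. Hoxb genes made up 55.8% (54.4 to 57.2) of Hox UMIs there against 2.11% (1.49 to 2.88) in fibroblast-like cells. Hoxa13 was at 0.985 CPM, from 7 UMIs. The class had 16 members found (background 31.2%), 8 of them Hoxb genes. Set against fibroblast-like cells, 15 of 19 measured members were at least 2-fold higher in endothelial-like cells and 4 lower, Hoxa10, Hoxa11, Hoxa13 and Hoxd13. Of all measured genes 19.8% were higher and 15.2% lower. To be measured, a member needed 10 CPM or more in 1 of the groups and 20 or more UMIs in all, and it counted as higher or lower with at least a 2-fold ratio whose interval excluded 1.

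Glia-like cells of the bladder, the support cells of its nerves, had 4 Hoxb, 4 Hoxc and 4 Hoxd members found and 1 Hoxa. They summed to 443 CPM, with Hoxd8 at 63.3, Hoxd9 at 57.7, Hoxc10 at 41.8, Hoxc9 at 36.2, Hoxa7 at 33.9 and Hoxc6 at 27.1 CPM. Here 13 members were found (background 26.2%), and Hoxa13 was at 3.39 CPM from 3 UMIs. Their median was 2806.5 UMIs per cell, the lowest of the bladder clusters with at least 40 cells.

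Urothelial-like cells, the lining epithelium, combined Hoxa and Hoxb genes and had next to no Hoxc. Hoxa9, known from blood-forming cells, was at 31.2 CPM (29.8 to 32.6), with Hoxa7 at 29.8, Hoxa10 at 29.2, Hoxb8 at 25.1, Hoxb2 at 18.3 and Hoxb4 at 12.8 CPM. The 2691 cells held 13802 Hox UMIs, and their Hoxc genes summed to 0.0627 CPM. Hoxb13, known from the prostate and hindgut, reached 4.20 CPM (3.72 to 4.74), while it was at 0 UMIs in bladder fibroblast-like cells. The class had 12 members found (background 27.6%). Against fibroblast-like cells, 6 of 10 measured members were higher, Hoxa7, Hoxa9, Hoxb2, Hoxb4, Hoxb7 and Hoxb8 (background 16.9%). Hoxa11, Hoxa13 and Hoxd13 were lower (background 29.1%), Hoxa13 at 10.4 CPM in urothelial-like cells against 37.0 CPM.

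Myeloid cells, whose precursors come from elsewhere in the body, held 18 Hox UMIs in 61 bladder cells, and no member was found (background 12.8%). Lymphocyte-like cells held 1 Hox UMI in 36 cells. Over the classes with 50 or more cells, 25 of 39 symbols were found in at least 1 class. The share of all mouse features found in at least 1 class was not computed, so this count has no background. The other 14 included Hoxc12, at 0 UMIs in the kept bladder cells, and Hoxb13, which missed the 5 CPM minimum. With each cell thinned to 2500 UMIs, 11.7% (9.98 to 13.6) of 1247 fibroblast-like cells held a Hoxa10 UMI, against 1 of 45 myeloid cells, 2.22% (0.0562 to 11.8). Hoxb4 UMIs were in 23.2% (20.6 to 26) of 991 endothelial-like cells and in 0.160% (0.0194 to 0.578) of fibroblast-like cells.

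**Figure D1:**
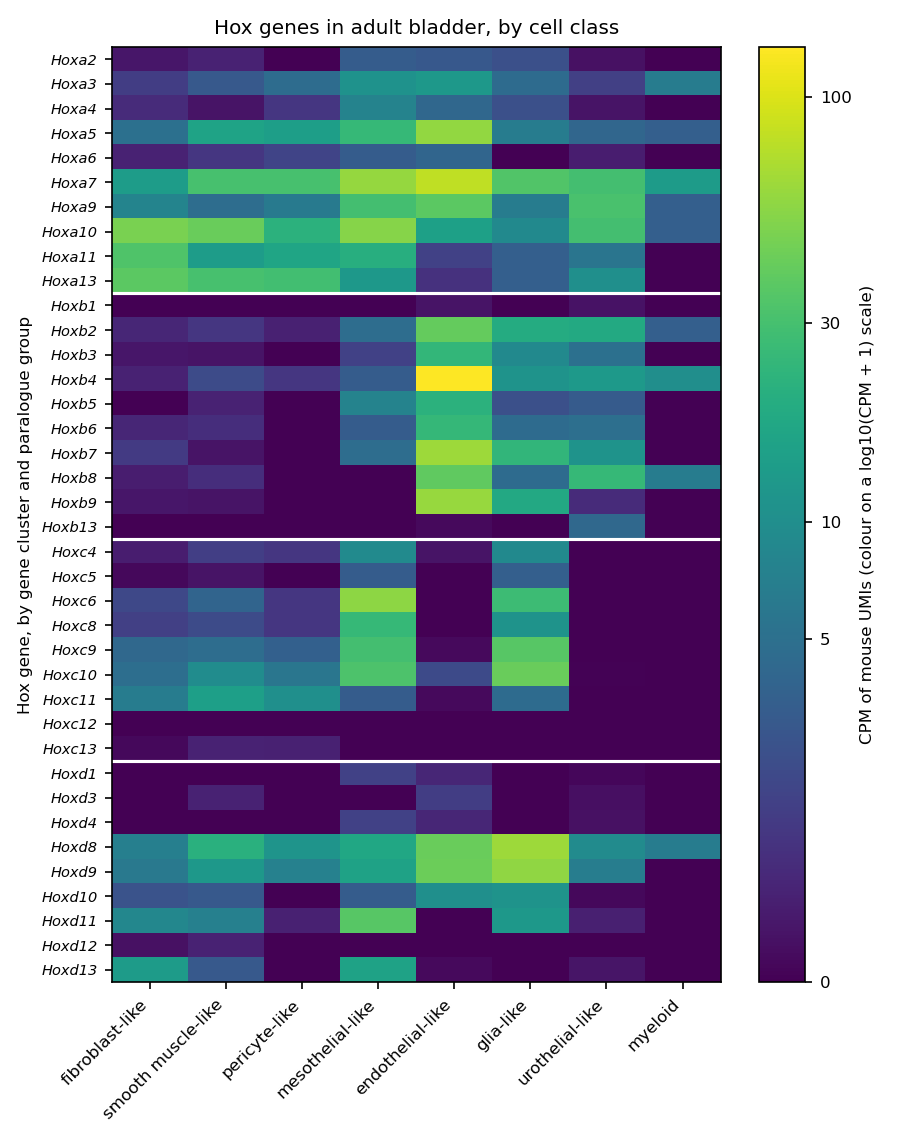
Level of Hox genes (rows, ordered by gene cluster and paralogue group) in the cell classes of adult bladder (columns), as CPM on a logarithmic colour scale, 1 library. Fibroblast-like, smooth muscle-like and pericyte-like columns are bright from Hoxa10 to Hoxa13 and dark over Hoxb. Hoxa7 is about as bright as Hoxa13 in the smooth muscle-like and pericyte-like columns. Endothelial-like cells are brightest at Hoxb4 (129 CPM), and urothelial-like cells are dark over Hoxc.

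Within bladder fibroblast-like cells, cluster 16 (407 cells, led by Pi16, Clec3b and Car3) and cluster 2 (1046 cells, led by Clec3b, Pi16 and Dpt) differed in their group 9 to 13 genes. Hoxa11 was at 66.4 CPM in cluster 16 and 15.2 CPM in cluster 2, a log2 ratio of 2.12 (1.75 to 2.51). Hoxa10 was at 78.2 against 32.3 CPM and Hoxa13 at 52.8 against 28.7 CPM. Hoxd13 went the other way, 4.06 against 18.6 CPM, a log2 ratio of -2.15 (-3.20 to -1.33). Of 8 measured members 4 were higher in cluster 16, Hoxa9, Hoxa10, Hoxa11 and Hoxc11 (background 6.04%), and 2 lower, Hoxd11 and Hoxd13 (background 4.3%). Among the 7-day cells of these clusters, Hoxa10, at 90.1 against 26.9 CPM, and Hoxa11, at 36.7 against 11 CPM, were higher in cluster 16 (background 6.22%). Hoxd13 was lower (background 4.66%). Clusters 2 and 16 held 0 cells of the 1-day library, and their 7-day cells had medians of 2344.5 and 3010 UMIs. Whether these 7-day cells belong to the assembloids was not tested, so they are not a repeat in assembloid stroma.

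Other position-related transcription factors also differed between these bladder fibroblast clusters. Of 34 listed factors of the hindgut, limb and ventral mesenchyme, 14 were measured, 10 higher in cluster 16 and 1 lower, with a median log2 ratio of 1.65 against 0.15 for all genes. Tbx4 and Tbx5, limb and body wall T-box factors, were at 14.9 and 13.9 CPM in cluster 16 against 3.94 and 5.92 CPM in cluster 2. Isl1, a factor of the genital and hindlimb field, was at 27.4 against 8.97 CPM, and Foxf1, a factor of visceral mesenchyme, at 127 against 39.1 CPM. Prrx1, a limb and connective tissue homeodomain factor, was the 1 lower, at 23.7 against 65.3 CPM. The cofactors of the TALE class, such as Meis and Pknox, which bind DNA together with Hox proteins, had 0 of 8 measured members past 2-fold.

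Smooth muscle-like cells of the bladder also held more than 1 Hox pattern. Cluster 26 (71 cells, led by Tnnt2, Myh11 and Synm), singled out after its values were seen, had Hoxd11 at 36.2 CPM against 0.365 CPM, 1 UMI, in cluster 11 (547 cells), a log2 ratio of 6.08 (4.01 to 12). Hoxa10, at 78.4 against 33.2 CPM, and Hoxa13, at 58.8 against 24.1 CPM, were also higher. Hoxa5, Hoxc11 and Hoxd9 were lower, each from 2 or 3 UMIs in cluster 26. These are 3 of 10 measured members in each direction (background 9.74% higher and 13% lower).

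Lymphatic vessel cells stood apart from blood vessel cells. Cluster 22 (215 bladder cells, led by Ccl21a and Mmrn1, lymphatic markers) had Hoxd9 at 98.8 CPM against 32.1 CPM in the blood endothelial clusters 17, 19 and 20, Hoxd8 at 74.1 against 35.8 CPM and Hoxd10 at 32.6 against 6.03 CPM. Hoxb9 was at 0 UMIs in cluster 22 and at 72.7 CPM in blood endothelium, at least 27.4-fold lower with a floor of 3 counts over the cluster. Of 16 measured members 3 were higher (background 12.8%) and 10 lower (background 11.3%). At 1 day, with 56 cells in cluster 22 and 392 in the assembloid blood endothelial cluster 13, Hoxd8, Hoxd9 and Hoxd10 were again higher (background 10.3%). Hoxb9 was at 2.10 CPM from 1 UMI against 49.1 CPM, and it was among 5 lower members (background 7.98%).

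In the urothelium, cluster 15 (431 cells) had more Hox RNA than cluster 1 (1304 cells, led by Upk3a, Sprr1a and Foxq1). Leading genes of cluster 15 included the basal keratins Krt15 and Krt5 and the uroplakin genes Upk3a and Upk1a. The sums were 333 CPM in cluster 15 and 159 CPM in cluster 1. Hoxa10 was at 46.7 against 19.6 CPM, Hoxa9 at 48.5 against 22.2 CPM and Hoxa13 at 15.6 against 6.93 CPM. Hoxb2, Hoxb4 and Hoxb7 were higher too, 6 of 9 measured members in all (background 3.93%), and 0 were lower (background 3.02%). Median UMIs per cell were 14706 in cluster 15 and 23604 in cluster 1. The part of depth in the difference was not tested. Cluster 3, another urothelial cluster (956 bladder cells, led by Upk3a, Upk1a and Psca), had a sum of 274 CPM. A higher sum than in cluster 1 was thus not particular to cluster 15.

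Most 1-day stroma took no class name, so it is given by cluster number. The fibroblast-like class of the 1-day library was cluster 6 alone (262 cells, led by Lum, Saa3 and Mmp3). Its companions were cluster 0 (1666 cells, led by Tnfsf15 and Aldh1a3), cluster 4 (860, Crabp1 and Acta1), cluster 5 (823, Spp1 and Gzme) and the clusters led by cell cycle genes, 7 (860, Ube2c) and 10 (595, Birc5). Of 13 fibroblast markers, clusters 0, 6 and 7 had 10 at 20 CPM or more, clusters 4 and 5 had 6 and cluster 10 had 7. Each of these clusters had 8 or 9 of 12 smooth muscle markers at that level and 0 of 20 urothelial and 0 of 12 myeloid markers. Of 17 endothelial markers, 0 or 1 reached that level, and their sum ranged from 41.6 CPM in cluster 6 to 152 CPM in cluster 4. Hoxa10 was the highest Hox gene in clusters 0, 6 and 7, as in bladder fibroblast-like cells, and Hoxc8 in clusters 4, 5 and 10.

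Hoxa13, the group 13 gene at chr6:52257694-52260880, split the 1-day clusters. It was at 12.7 CPM (11.6 to 14) in cluster 0, 17.8 CPM (13.9 to 22.6) in cluster 6 and 12.1 CPM (10.6 to 13.8) in cluster 7. It was at 0.270 CPM (0.0877 to 0.630) in cluster 4, 0.124 CPM (0.0150 to 0.447) in cluster 5 and 0.465 CPM (0.171 to 1.01) in cluster 10, from 5, 2 and 6 UMIs. All values of the first 3 clusters lie above all of the second 3, with no overlap of intervals. The clusters were grouped in this way after their Hox values were seen, so this is a description. The share of all genes that separate them in this way was not computed. Hoxa11 split the same way, at 9.72 to 11.6 CPM against 1.24 to 1.47 CPM, and Hoxa10 at 28.6 to 38.5 CPM against 6.97 to 11.3 CPM. Hoxd13 was at 2.30, 1.29 and 4.57 CPM in clusters 0, 6 and 7 and at 0, 2 and 0 UMIs in clusters 4, 5 and 10.

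Hoxc8, a group 8 gene of trunk skeleton and motor neurons, at chr15:102990607-102994111, ran the opposite way. It was at 7.48 CPM (6.58 to 8.47) in cluster 0, 6.72 CPM (4.39 to 9.85) in cluster 6 and 4.74 CPM (3.79 to 5.85) in cluster 7. In clusters 4, 5 and 10 it was at 104 CPM (99.7 to 109), 80.5 CPM (76.2 to 85.0) and 66.8 CPM (62.4 to 71.4). Hoxb9, a trunk gene of chromosome 11 at chr11:96271457-96276595, was at 3.48, 1.81 and 2.81 CPM in the first 3 clusters and at 88.9, 69.0 and 63.3 CPM in the second 3. Bladder fibroblast-like cells had 1.52 CPM of Hoxc8 and 0.351 CPM of Hoxb9, from 13 and 3 UMIs.

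Pairs of clusters were set against each other over all genes, and the pairs were chosen after their values were seen. Cluster 4 against cluster 0 had 15 measured members, 11 higher (background 5.37%) and 2 lower, Hoxa10 and Hoxa13 (background 6.46%). The 11 were Hoxb2, Hoxb3, Hoxb4, Hoxb7, Hoxb8 and Hoxb9 with Hoxc5, Hoxc6, Hoxc8, Hoxc9 and Hoxc10. Cluster 5 against cluster 0 had 18 measured, 15 higher (background 3.62%) and the same 2 lower (background 5.97%), and its median log2 ratio was 3.07 over these members against 0.05 over all genes. Between the cell cycle clusters, 10 against 7, 16 of 21 were higher (background 4.13%), and Hoxa10, Hoxa11 and Hoxa13 were lower (background 5.37%). The pattern was thus measured between cells led by cell cycle genes as well as between cells that were not. Cluster 6 against cluster 0 had 0 of 5 measured members past 2-fold (background 2.86% higher and 0.875% lower).

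Hoxa5 and Hoxa7 had different levels in clusters 4 and 5, a pair that was not compared over all genes. Hoxa5, a gene of the lung and neck region, was at 39.0 CPM in cluster 5 and 36.2 CPM in cluster 10, and Hoxa7 at 49.4 and 47.4 CPM. Both were higher than in clusters 0 and 7, where Hoxa5 was at 3.27 and 4.41 CPM and Hoxa7 at 12.8 and 15.3 CPM. Cluster 4 had Hoxa5 at 6.65 CPM and Hoxa7 at 20.7 CPM. Hoxc10, at 31.9 against 10.3 CPM in cluster 0, was higher in cluster 4. Hoxc5 and Hoxc10 share exon sequence on 1 strand in the annotation, so the assignment of their reads is uncertain.

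**Figure D2:**
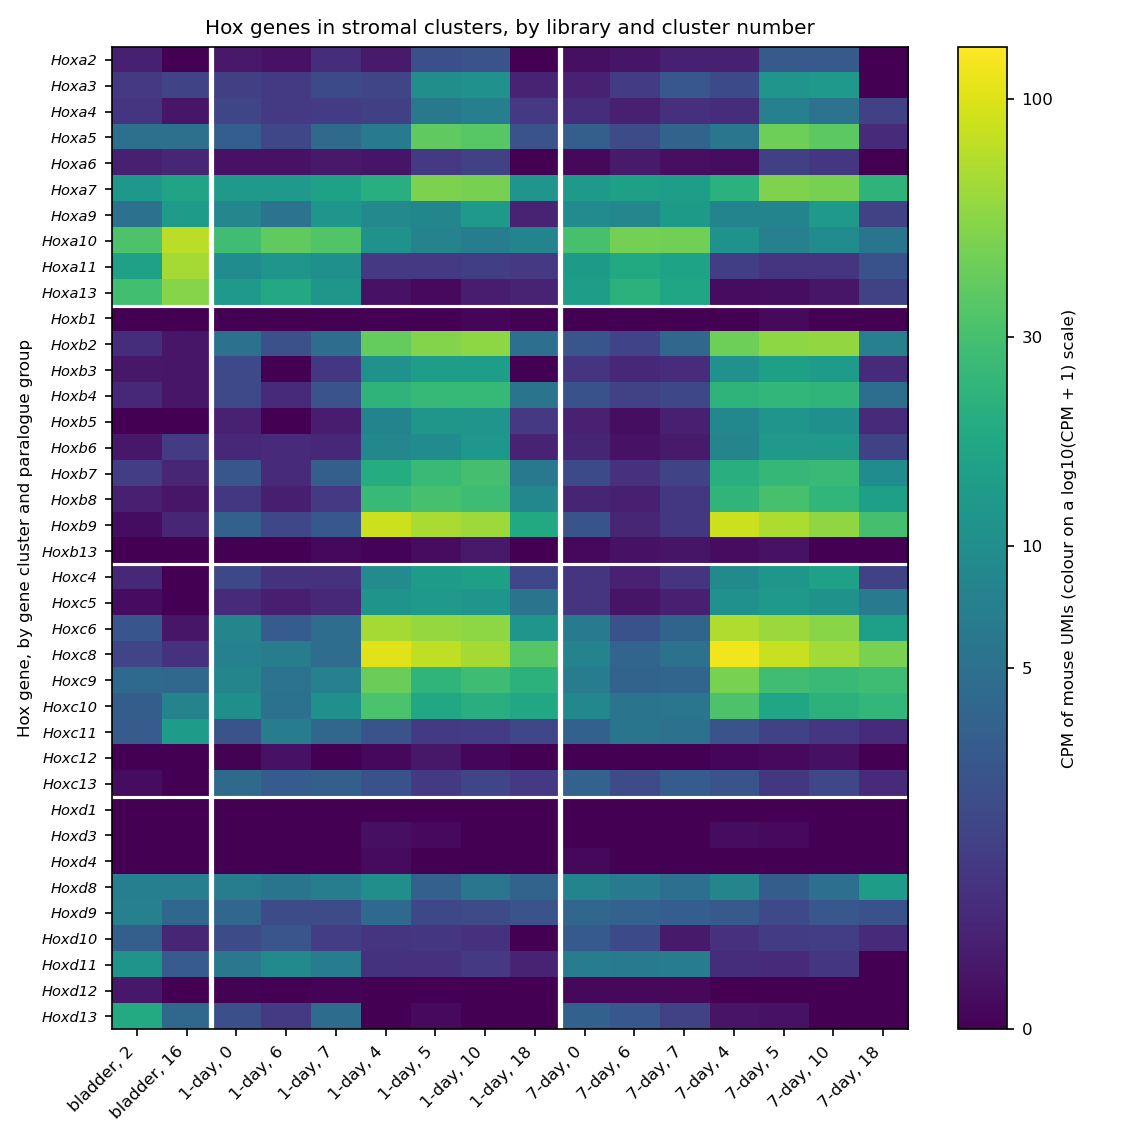
Level of Hox genes (rows) in stromal clusters of the bladder, 1-day and 7-day libraries (columns, by library and cluster number), as CPM on a logarithmic colour scale. In both assembloid libraries clusters 4, 5 and 10 are brightest at Hoxc8, with Hoxb2, Hoxb9 and Hoxc6 also bright, and dark at Hoxa11 and Hoxa13, clusters 0, 6 and 7 are brightest at Hoxa10, and cluster 18 is dimmer with Hoxc8 highest.

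Shares of cells are a description here, since the genes were picked for their levels in these clusters. Cells were thinned to 10000 UMIs and scored for 1 or more UMIs of Hoxa11, Hoxa13 or Hoxd13, and of Hoxb9, Hoxc6, Hoxc8 or Hoxc9. In 1-day cluster 0, 22.1% (19.99 to 24.2) of 1519 cells had the first set and 18.96% (17 to 21.0) the second. In cluster 6 the shares were 27.6% (21.8 to 34.1) and 12.4% (8.36 to 17.6). In cluster 4, 1.81% (0.992 to 3.02) of 774 cells had the first set and 89.3% (86.9 to 91.4) the second, and in cluster 5 the shares were 1.36% (0.653 to 2.48) and 75.8% (72.6 to 78.9). Among 23 1-day myeloid cells that deep, 8.70% (1.07 to 28.0) had the first set and 0% (0 to 14.8) the second. Median depth before thinning was 8170 UMIs in myeloid cells, 19332.5 in cluster 0 and 21602 in cluster 4. The first-set shares of clusters 4 and 5 were below the myeloid share, and the second-set share of cluster 6 lay within the myeloid interval. With 23 myeloid cells these intervals are too wide to set a background level. Of 98 1-day urothelial-like cells that deep, 6.12% (2.28 to 12.9) had the second set. At 7 days the second set was in 9.12% (7.33 to 11.2) of 910 cluster 6 cells. It was in 1.34% (0.646 to 2.46) of 744 7-day urothelial-like cells. At 1 day, cells with both sets were 54 of 1519 in cluster 0 and 11 of 774 in cluster 4.

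**Figure D3:**
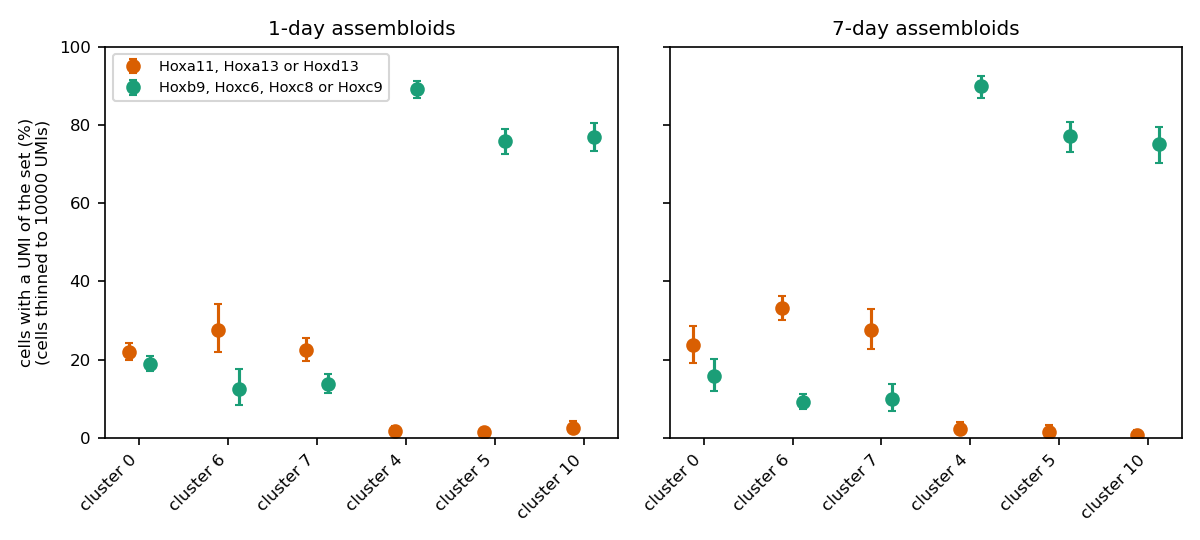
Share of cells with at least 1 UMI of Hoxa11, Hoxa13 or Hoxd13 (orange) and of Hoxb9, Hoxc6, Hoxc8 or Hoxc9 (green) in 6 stromal clusters of each assembloid library, after thinning to 10000 UMIs per cell, with Clopper-Pearson 95% intervals. In clusters 4, 5 and 10 the green share lies between 75.2% and 89.96% and the orange share between 0.570% and 2.53%, in both libraries.

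Clusters 4, 5 and 10 held 2278 cells of the 1-day library, 1354 of the 7-day library and 0 of the bladder library. Clusters 0, 6 and 7 held 2788, 1692 and 2. The bladder fibroblast-like class pools mainly clusters 2 and 16, which differ in Hoxa11, Hoxa13 and Hoxd13. Set against bladder fibroblast-like cells, cluster 5 had 20 measured members, 16 higher (background 17.6%) and 4 lower, Hoxa10, Hoxa11, Hoxa13 and Hoxd13 (background 22.8%). Cluster 0 had 6 measured, with Hoxc10 higher (background 14.7%) and Hoxa11, Hoxa13 and Hoxd13 lower (background 21.3%). Cluster 4 had 17 measured, 11 higher (background 19.1%) and the same 4 as cluster 5 lower (background 22%). Hoxd13 was at 0 UMIs in cluster 4 and 13.6 CPM in bladder fibroblast-like cells, at least 83.8-fold lower with a floor of 3 counts over the cluster. Against the same bladder cells, cluster 0 had 9 of 13 measured position-related factors lower, among them Isl1, Foxf1 and Tcf21, and 1 higher, Prrx1. The median log2 ratio of these factors was -1.45 against -0.03 for all genes. In cluster 5, 10 of 17 measured factors were lower and 5 higher.

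Other position-related factors split along with the Hox genes. Of 14 measured of the 34 listed factors, cluster 5 had 6 higher and 6 lower than cluster 0 at 1 day. Foxd1, a factor of kidney stroma, was at 21.6 against 0.939 CPM, and En1, a homeodomain factor of the ventral limb, at 17.6 against 3.18 CPM. Prrx1 was at 294 against 134 CPM, and Irx3 and Prrx2 were also higher. Tcf21, a factor of visceral mesenchyme, was at 0.371 against 17.6 CPM, and Pitx1, a hindlimb factor, at 11.1 against 31.3 CPM. Foxf1, Hand2 and Osr1 were also lower.

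Cluster 4 shared En1, Irx3 and Prrx1 as higher and Pitx1, Foxf1 and Tcf21 as lower. En1 stood at 50.3 CPM there, and Irx5 at 19.4 CPM against 0.696 CPM in cluster 0. Among TALE cofactors 2 of 8 were lower in both, Meis2 and Pknox2, and 0 higher. Hotairm1, a noncoding RNA at the low-numbered end of the Hoxa cluster, was higher in both, at 37.0 and 50.0 CPM against 18.2 CPM. Of 16 listed Hox regulators (Polycomb and trithorax group genes and Ctcf), 10 were measured in either comparison and 0 passed 2-fold.

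At 7 days the same clusters again had 2 levels of Hoxa13 and Hoxc8. Hoxa13 was at 14.5 CPM (12.1 to 17.2) in cluster 0, 21.9 CPM (19.9 to 24.1) in cluster 6 and 17 CPM (14.4 to 19.9) in cluster 7. In clusters 4, 5 and 10 it was at 0.178, 0.209 and 0.334 CPM, from 3, 3 and 4 UMIs. Hoxc8 was at 7.90, 3.90 and 5.33 CPM in the first 3 and at 117, 85.7 and 65.6 CPM in the second 3. Cluster 4 against cluster 0 had 11 members higher (background 5.72%) and 3 lower (background 7.55%), and cluster 5 had 16 higher (background 4.06%) and 3 lower (background 7.04%). Between the cell cycle clusters 17 were higher (background 4.3%) and 3 lower (background 6.83%), and cluster 6 against cluster 0 again had 0 of 4 past 2-fold (background 2.46% higher and 0.965% lower).

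Fibroblast-like cells of 1-day assembloids, cluster 6, were compared with those of the bladder, which asks how much of the adult pattern the cultured stroma had. Hoxa10 was at 38.5 CPM against 48.3 CPM, a log2 ratio of -0.32 (-0.61 to -0.05), and Hoxa7 at 12.7 against 13.8 CPM, -0.12 (-0.64 to 0.37). Hoxa11 was at 11.6 against 33.0 CPM, a log2 ratio of -1.49 (-1.99 to -1.05), and Hoxa13 at 17.8 against 37.0 CPM, -1.04 (-1.45 to -0.67). Hoxd13 was at 1.29 CPM, from 5 UMIs, against 13.6 CPM, a log2 ratio of -3.26 (-5.04 to -2.13). These 3 of 5 measured members were lower, against 17.1% of all measured genes, and 0 were higher, against 14.3%. The bladder class pools mainly clusters 2 and 16, which differ in these genes. Hoxa11 was at 15.2 CPM in cluster 2 and 66.4 CPM in cluster 16, and Hoxa13 at 28.7 and 52.8 CPM. Hoxd13 was at 18.6 and 4.06 CPM. The size of each ratio thus depends on the mix of these clusters. Cluster 6 was not compared with either of them alone. When the unnamed clusters were pooled with cluster 6, 9 members were higher and 4 lower, and with classes taken from marker UMIs of each cell 6 were higher and 3 lower. The share of all genes called was not computed under these 2 changes, so these counts have no background.

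Cofactors were lower along with them. Meis1, a TALE cofactor, was at 26.1 CPM against 54.0 CPM in bladder and Pknox1 at 14.5 against 33.3 CPM. They were among 3 lower of 8 measured cofactors, with 0 higher. Of 13 measured position-related factors, Tcf21, at 61.0 against 457 CPM, Isl1 and Osr1 were among 4 lower and Tbx18 was the 1 higher. Of 15 Hox regulators, 6 were lower, among them Ezh1 and Cbx7 of the Polycomb group, and 0 were higher. Median log2 ratio was -0.54 over these regulators and 0.07 over all genes.

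At 7 days, fibroblast-like cells had Hoxa13 at 22.6 CPM and Hoxa11 at 18.4 CPM, neither past 2-fold from bladder, and Hoxd13 at 3.99 CPM, a log2 ratio of -1.77 (-2.19 to -1.35). That is 1 of 5 measured members lower (background 14%) and 0 higher (background 10.4%). In assembloid-side cells Hoxd13 was at 2.77 CPM, and it was again the 1 lower member (background 16.1% lower and 12% higher). From 1 day to 7 days 0 of 4 measured members passed 2-fold in either direction (background 2.43% higher and 0.754% lower). Hoxa11 had the largest ratio of the 4, 18.4 against 11.6 CPM, a log2 ratio of 0.65 (0.21 to 1.14). In assembloid-side cells alone 0 of 4 passed as well (background 0.676% higher and 0.753% lower).

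**Figure D4:**
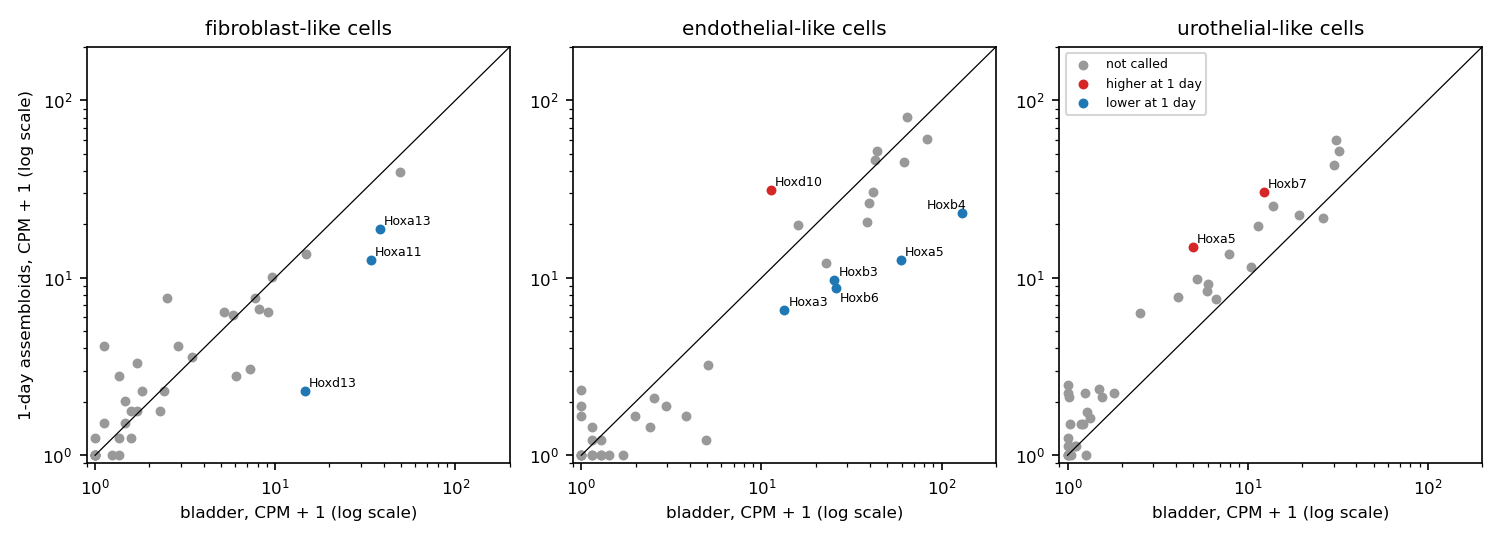
Level of Hox genes in bladder (horizontal axis, CPM + 1, log scale) and in 1-day assembloids (vertical axis, CPM + 1, log scale) for 3 cell classes. Points are genes, the line marks equal levels, and named genes were at least 2-fold higher (red) or lower (blue) at 1 day: Hoxa11, Hoxa13 and Hoxd13 lie below the line in fibroblast-like cells, and Hoxa5 and Hoxb7 above it in urothelial-like cells.

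Urothelial-like cells kept a Hoxa and Hoxb pattern in assembloids. Hoxa5 was at 13.9 CPM at 1 day against 3.95 CPM in bladder, a log2 ratio of 1.82 (1.48 to 2.14), and Hoxb7 at 29.3 against 11.3 CPM, 1.38 (1.16 to 1.59). These were 2 of 11 measured members (background 13.2%), and 0 were lower (background 6.71%). Hoxa7, at 59.0 against 29.8 CPM, and Hoxa13, at 18.5 against 10.4 CPM, did not reach 2-fold. In 7-day assembloid-side cells Hoxa5, Hoxa13, at 22.1 CPM, and Hoxb7 were higher (background 12.4%), and 0 were lower (background 6.57%). Different clusters hold most of this class, 1, 3 and 15 in bladder and 8, 9 and 29 in the 1-day library.

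Endothelial-like cells of 1-day assembloids had less Hoxb4, 22.3 against 129 CPM, a log2 ratio of -2.53 (-2.85 to -2.24). Hoxa5 was at 11.6 against 58.5 CPM, -2.33 (-2.78 to -1.92), and Hoxd10 at 30.3 against 10.3 CPM, 1.55 (1.14 to 1.99). Hoxa3, Hoxb3 and Hoxb6 were the other lower members, so 5 of 16 measured were lower (background 22.2%) and 1 higher (background 21.5%). Limited to blood endothelium, cluster 13 against clusters 17, 19 and 20, 7 were lower (background 22.9%) and 1 higher (background 23.8%). At 7 days Hoxb4 was at 31.0 CPM in assembloid-side and 115 CPM in bladder-side endothelial-like cells.

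Glia-like cells of 1-day assembloids had Hoxb7 at 65.5 against 23.7 CPM, a log2 ratio of 1.43 (0.82 to 2.18), and Hoxc8 at 32.8 against 11.3 CPM. Hoxb8 was also higher, and Hoxa7 was lower at 15.1 against 33.9 CPM. That is 3 of 15 measured members higher (background 13.8%) and 1 lower (background 19.3%).

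The 1-day cells that met the smooth muscle rule were cluster 18 (265 cells), led by Sprr2k, Acta1 and Crabp1, which also led cluster 4. Its Myh11, the smooth muscle myosin, was at 23.3 CPM and its median was 5364 UMIs per cell, so the comparison with bladder muscle sets different kinds of cells side by side. Hoxa13 was at 0.613 CPM from 1 UMI against 30.8 CPM, and Hoxc8 at 35.5 against 2.06 CPM. Of 13 measured members 8 were lower (background 46.4%) and 4 higher, Hoxb9, Hoxc6, Hoxc8 and Hoxc9 (background 15.3%). With doublet calls kept, 1920 cells met the rule and 6 members were lower and 0 higher. With classes from marker UMIs of each cell 9 were higher and 6 lower, and at clustering resolution 2, 5 were higher and 4 lower. The share of all genes called was not computed under these changes, so their counts have no background. In the 7-day library, bladder-side smooth muscle-like cells had Hoxa13 at 36.3 CPM and 0 Hoxc8 UMIs, and assembloid-side ones had 1.63 and 48.0 CPM.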

How the data were processed

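Single cells of 3 libraries had been captured with the 10x Genomics 3′ version 3 kit, per the labels' protocols. The deposited values are raw UMI counts for each gene in each barcode, not normalized and on a combined human and mouse gene set. Per the file headers they were made with Cell Ranger 3.1.0, and the submitters' processing notes name GRCh38, mm10 and hg38. The annotation release is not given in the sources used here. Positions come from GENCODE vM21, found for 39 of 40 members.

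Barcodes with at least 90% mouse UMIs, 500 genes and under 20% mitochondrial UMIs were kept, and Scrublet doublet calls (2.41% to 3.39% per library) left out. Cells were clustered with scanpy 1.11.5 and leidenalg 0.10.2 (2000 variable genes without Hox genes, 30 components, 15 neighbours, resolution 1). A 7-day cell was assembloid-side with at most 5%, and bladder-side with at least 95%, bladder cells among its 30 nearest cells of the other libraries. UMIs were summed per class and scaled to CPM. Ratios add 0.5 counts and carry exact conditional intervals, and shares carry Clopper-Pearson intervals. The ratio script was tested on simulated data. A named cluster had at least 3 markers at 2-fold and a marker among its 10 leading genes.

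Members found in a class were eligible to be named, in full for up to the 6 highest per class and for those called at 1 day against bladder in fibroblast-like or urothelial-like cells. From each gene list, up to 5 members by CPM and those past 2-fold were eligible. Members named outside this rule were chosen after their values were seen. The members, the lists and the tests were chosen with earlier results of these data known, and the cluster pairs and the 2 gene sets after their values were seen. Human and mixed barcodes were not used. Some genes are not reported here or drawn in the plots.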

Additional observations from a re-analysis of the deposited data

Results flagged for a closer look

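Hoxa5 had log2 ratios of opposite sign between cell classes when 1-day assembloids were set against bladder. Its log2 ratio was 1.82 in urothelial-like cells, -2.54 in smooth muscle-like cells and -2.33 in endothelial-like cells. The difference between the classes was not tested, since each group had 1 library. The smooth muscle-like value rests on 4 UMIs of cluster 18, which holds a different kind of cell from bladder muscle. Most urothelial-like and endothelial-like cells also came from different clusters in bladder and at 1 day. A change within the same kind of cell was therefore not measured.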

How the results depend on the processing

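Of the recomputed values, 121 stayed within the limits set for no change and 20 moved. These limits read the size of a count and not its split, and the split turned in several cases. Counts of called members, all from 1 library per group, are given here for those that moved. The share of all genes called was not computed for the recomputed counts, so they have no background. For fibroblast-like cells at 1 day against bladder, 3 members became 6 with no minimum level, 9 with classes from marker UMIs of each cell and 13 with the unnamed clusters, and 0 higher and 3 lower became 6 and 3, then 9 and 4, under these last changes. For urothelial-like cells, 2 became 7 with no minimum level, 1 with a minimum of 20 CPM and 7 at 1.5-fold. For smooth muscle-like cells, 12 became 6 with a minimum of 20 CPM and 6 with doublet calls kept, and 4 higher and 8 lower became 9 and 6 with classes from marker UMIs and 5 and 4 at resolution 2. For fibroblast-like cells at 7 days against bladder, 1 became 0 with the mean of per-cell CPM, 4 with no minimum level, 0 with a minimum of 20 CPM, 3 at 1.5-fold, 9 with classes from marker UMIs and 12 with the unnamed clusters, where 0 higher and 1 lower became 6 and 3, then 9 and 3. At 7 days against 1 day, 0 became 2 with no minimum level and 1 at 1.5-fold. For stromal cluster 5 against cluster 0, 17 became 26 with no minimum level and 11 with a minimum of 20 CPM. The share of fibroblast-like cells with a Hoxa10 UMI was 11.7% at 2500 UMIs, 19.02% at 5000 UMIs and 21.1% without thinning. The causes were not tested, except that a lower minimum tests more genes and a higher one fewer. No paired analysis was possible because each group had 1 library and no replicate. Depth limits members at a few UMIs in small classes, and differences there were not detectable.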
